A study of Homo sapiens with 13 samples.

Results

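This is a description of 10 genes of extracellular serine proteolysis in DLD-1 cells, a human line from a Dukes' type C colorectal adenocarcinoma. The genes were chosen by symbol, with earlier results of these same samples known, out of 23886 symbols listed in each of the authors' deposited tables. They are 8 trypsin-fold proteases (TMPRSS2, TMPRSS3, TMPRSS4, ST14, HPN, PRSS8, PRSS22 and PRSS1) and 2 Kunitz inhibitors (SPINT1 and SPINT2). All 10 had reads in both tables, as did 18747 of all symbols under siSOX9 and its controls and 17706 under siY14 and its controls. PRSS22 and PRSS1 encode secreted enzymes, so not every protease of the set is held at the membrane.

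RNA-seq of polyadenylated transcripts was done on 13 samples. Cells received 50 nM of siRNA and were lysed 72 h later. The siSOX9 table compares 4 siSOX9 samples with 3 siCtrl samples from 2 experiments (experiment 1 with 2 siCtrl and 3 siSOX9 samples, experiment 2 with 1 of each). The siY14 table compares 4 siY14 samples, made with siRNAs numbered 9 and 10 in 2 samples each, with 2 siCtrl samples of experiment 3. Control siRNA was transfected in every siCtrl sample, and all samples are of this 1 cell line. SOX9 is an HMG-box transcription factor of intestinal crypts and colorectal tumours, and Y14 belongs to the core of the exon junction complex, the protein group left on mRNA by splicing. The siSOX9 table pools both experiments in each arm, with no term for experiment. The labels do not say whether replicates were separate cultures. The p-values here thus set differences between arms only against how much these samples vary, and that variation may be technical.

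Trypsin-fold proteases cut after basic residues and are made as inactive zymogens, which another protease, or a second copy of the same one, must cleave. On the surface of epithelial cells, type II transmembrane proteases (TMPRSS2, TMPRSS3, TMPRSS4, ST14 and HPN) and the membrane-anchored prostasin, encoded by PRSS8, form activation cascades. Matriptase, encoded by ST14, and prostasin act together in epithelial barriers, and the membrane-bound inhibitors HAI-1 (SPINT1) and HAI-2 (SPINT2) hold both in check through their Kunitz domains. In colon epithelium this system is known for processing growth factor precursors, junction proteins and the sodium channel ENaC.

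What joins the 8 proteases is the loop that holds the catalytic serine. The coding sequence of that loop is shown because it carries the shared motif and the variation of its codons. Each line gives 36 bases, 5′ to 3′, of the longest coding transcript in GENCODE v29, and the capitals mark the 18 bases that encode glycine, aspartate, serine, glycine, glycine and proline.
TMPRSS2: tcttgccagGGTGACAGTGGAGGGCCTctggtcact
TMPRSS3: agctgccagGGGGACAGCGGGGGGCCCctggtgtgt
TMPRSS4: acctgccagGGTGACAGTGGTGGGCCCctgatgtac
ST14: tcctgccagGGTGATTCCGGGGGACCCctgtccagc
HPN: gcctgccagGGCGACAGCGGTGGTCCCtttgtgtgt
PRSS8: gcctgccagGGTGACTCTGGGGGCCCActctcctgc
PRSS22: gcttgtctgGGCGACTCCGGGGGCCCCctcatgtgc
PRSS1: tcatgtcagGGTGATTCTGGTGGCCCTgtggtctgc
The motif was found in frame in all 8 proteases and in neither inhibitor. Over the 36 bases, ST14 and PRSS8 each differed from PRSS1 at 10 positions, TMPRSS2 at 11, TMPRSS4 and PRSS22 at 12, HPN at 14 and TMPRSS3 at 15. The serine codon is AGT or AGC in TMPRSS2, TMPRSS3, TMPRSS4 and HPN, and TCC or TCT in ST14, PRSS8, PRSS22 and PRSS1. The genes lie on 6 autosomes in this annotation: TMPRSS2 and TMPRSS3 on chromosome 21, TMPRSS4 and ST14 on 11, HPN and SPINT2 on 19, PRSS8 and PRSS22 on 16, PRSS1 on 7 and SPINT1 on 15. Antisense genes overlap exons of HPN (349 bases), PRSS8 (357), SPINT1 (100) and PRSS22 (29), and another gene on the same strand shares 242 exon bases with SPINT2. Whether counting used strand is not stated, so reads of such partners cannot be told apart.

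All expression values below are reads divided by a size factor per library, called normalised counts. The deposited tables print a mean per arm, and whole reads per library were recovered from these means for 83.1% (siSOX9 table) and 77% (siY14 table) of genes with reads. Recovered libraries carry no sample name and are lettered a to d by depth. Of the 10 genes, 7 were recovered in both arms of both tables, and ST14, SPINT1 and SPINT2 only in the siCtrl arms. Library a of each arm of the siSOX9 table is the deepest and stands apart, at about 179 and 184 M counts against 24.9 to 41.7 M for the others. The siY14 table's libraries span 47.2 to 71.6 M counts. The 4 siY14 libraries fell into pairs: over 7203 genes, deviations from the arm mean correlated at 0.893 between a and c and at 0.890 between b and d, while the other combinations lay between -0.949 and -0.942. These correlations are across genes, which are not independent. Whether a pair shares an siRNA or a replicate number is not known. SOX9 itself went from 24468 to 9067 under siSOX9 (log2 fold change -1.43, adjusted p 1.40e-04, authors' deposited table). RBM8A, the Y14 gene, is listed at 0 in both tables, so the depth of the Y14 knockdown was not analysed here.

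The cells carried the markers of colon epithelium: 10 of 11 listed markers, among them EPCAM, KRT8, KRT18, KRT19, CDH1 and CDX2, had an arm mean of at least 10 in every arm, with a summed level of 306232 to 429089, and CDX1 stayed below 10. The sum was 347751 in siCtrl and 306232 in siSOX9, where 1 marker rose and 2 fell, and 429089 in siCtrl and 317983 in siY14, where 4 fell. Markers of pancreas and liver, organs for which some of the genes are best known, were low. Of 13 pancreatic acinar markers only CEL reached 10, with a list sum of 29.7 to 95.2, and 6 to 8 of the 13 were at 0 in each arm. The 8 hepatocyte markers summed to 8.49 to 15.4. The 5 prostate luminal markers were not all low, with a list sum of 424 to 826. Of these, only ACPP (and KLK3 in 1 siCtrl arm) reached 10. Immune, fibroblast and endothelial lists held 2 of 8, 2 or 3 of 7 and 1 of 5 markers at or above 10, with PTPRC and CD3E near 0. Under siSOX9, 2 fibroblast markers rose and 1 fell, with a list sum of 138 in siCtrl and 158 in siSOX9. The part of these markers in the results was not tested.

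In control cells the genes of matriptase (ST14) and its HAI inhibitors (SPINT1 and SPINT2) were the most abundant of the set. Levels between genes are compared here as siCtrl normalised counts per kb of the longest coding transcript. SPINT2 stood at 13496 per kb (siSOX9 table) and 15097 per kb (siY14 table). ST14 followed at 7571 and 5532, and SPINT1 at 4412 and 4798. Before length correction, these genes exceeded 98.5%, 98.7% and 96.5% of genes with reads in the siCtrl arm of the siSOX9 table, in that order. Transcripts of both HAI inhibitors were thus present beside those of matriptase: per kb, ST14 was 1.72 times SPINT1 and 0.561 times SPINT2 in that arm. The order of SPINT2 and ST14, and their ratio, rest on the length used. SPINT2 has 1802 bases in its longest coding transcript and 5199 in all annotated exons, against 3539 and 4350 for ST14. Over all exons ST14 would stand above SPINT2 in that arm.

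PRSS22, which encodes tryptase epsilon, stood at 1908 and 1420 per kb. PRSS8 stood at 1432 and 767. TMPRSS2, a protease known for activating viral envelope proteins, stood at 538 and 420.5. TMPRSS3, mutated in hereditary deafness, stood at 185 and 126. PRSS1, cationic trypsinogen, stood at 79.0 and 94.0, and TMPRSS4, known as raised in pancreatic and other carcinomas, at 27.7 and 13.7. HPN, which encodes the hepatic protease hepsin, was at 2.87 and 0.539. With this length the order was identical in both control arms, and the ranges of library values per kb of neighbours in that order did not overlap in either arm. Tables were normalised separately, so a level set across them compares orders and not sizes.

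**Figure D1:**
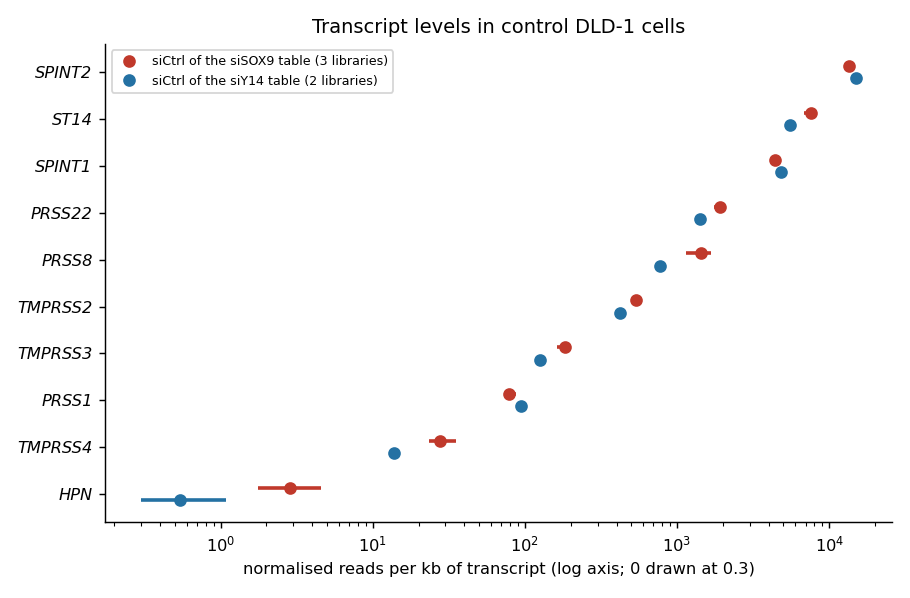
Normalised reads per kb of transcript (x, log axis) for each of the 10 genes (y) in the siCtrl arm of the siSOX9 table (3 libraries) and of the siY14 table (2 libraries). Dots are arm means and bars run from the lowest to the highest library; SPINT2, ST14 and SPINT1 lie at 4412 per kb or more, and HPN at 2.87 or less.

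The siSOX9 comparison asks which transcripts depend on SOX9 in these cells. At an adjusted p under 0.05 (authors' deposited table), 4 of the 10 genes were lower (TMPRSS2, TMPRSS3, TMPRSS4 and PRSS1) and 0 were higher, where 2.27% of all genes with reads were called lower and 1.19% higher. Since the genes were chosen with these results known, nothing is read from that share. By that table's unadjusted p (under 0.05), 0 were higher and 5 lower, beside 797 and 1106 of 18747 genes with reads. On recovered reads limma-voom called 0 higher and 5 lower of 7, beside 965 and 1321 of 10520. In bulk RNA, fewer cells with a transcript and less of it per cell cannot be told apart. The median log2 fold change of the 10 was -0.37, against 0.013 over 13649 genes with a mean of at least 10. In 5 of the 7 genes recovered in both arms, every siSOX9 library was below every siCtrl library, as for 16.1% of the 10520 recovered genes whose mean reached 10. The 4 genes that fell are, with HPN, the 5 least abundant per kb of the 10, and ST14, SPINT1, SPINT2 and PRSS8 lay between -0.18 and -0.075 on the log2 scale.

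Among the membrane-spanning proteases, TMPRSS3 had the smallest adjusted p. Its normalised counts were 643, 607 and 519 in the siCtrl libraries. They were 251, 245, 194 and 222 in the siSOX9 libraries, so the highest siSOX9 value was far under the lowest siCtrl value. The arm means were 589.9 ± 64.0 (SD, n = 3) and 228 ± 26.0 (SD, n = 4). The authors' deposited table gives this as -1.37 on the log2 scale (adjusted p 1.02e-08).

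TMPRSS2 was the most abundant gene of the set that fell. The siCtrl libraries held 1746, 1844 and 1636 normalised counts. The siSOX9 libraries held 867, 944, 893 and 846, a tight group far under the controls. The means were 1742 ± 104 (SD, n = 3) and 887 ± 42.4 (SD, n = 4), a log2 fold change of -0.97 (adjusted p 1.01e-05, authors' deposited table).

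TMPRSS4 was scarce, with 19 to 298 reads per library in this table. Its siCtrl libraries were at 86.4, 124 and 83.0 normalised counts. Its siSOX9 libraries were at 46.1, 46.9, 47.2 and 39.4, again without overlap. The log2 fold change was -1.12 (adjusted p 0.0305, authors' deposited table), so it fell, although closer to the threshold than TMPRSS2 or TMPRSS3.

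PRSS1 showed the steepest fall of the 10. The siCtrl libraries held 70.2, 59.9 and 60.2 normalised counts and the siSOX9 libraries 13.1, 11.1, 13.5 and 14.5. The siSOX9 mean of 13.1 ± 1.42 (SD, n = 4) was 0.206 of the siCtrl mean of 63.4 ± 5.85 (SD, n = 3), or -2.28 on the log2 scale (adjusted p 1.03e-06, authors' deposited table). These values rest on few reads: 242, 44 and 29 in siCtrl and 47, 9, 8 and 7 in siSOX9. PRSS1 belongs to a family of similar trypsinogen genes, and its counts are uncertain where their sequence is shared. Of the 754 windows of 50 bases in its transcript, 33 (4.38%) also occur in PRSS2 transcripts and 0 in those of PRSS3. Only exact matches were counted, so this share sets no upper bound on reads that could be misplaced. PRSS2 is listed at 0 in both tables, so reads from it were not counted under that name. PRSS3 was at 3184 in siCtrl and 2957 in siSOX9 (adjusted p 1, authors' deposited table).

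PRSS22 lay just outside the threshold, at -0.56 on the log2 scale (adjusted p 0.0509, authors' deposited table). Its siCtrl libraries held 2438, 2770 and 2728 normalised counts and its siSOX9 libraries 1641, 1900, 1744 and 1884, which do not overlap. On the recovered reads limma-voom, with Benjamini-Hochberg adjustment, gave -0.55 ± 0.069 (SE) and an adjusted p of 7.60e-04, past the threshold, in a fit that called 21.7% of the genes it tested. Adjusting the authors' p-values again over genes with a mean of at least 10 gave 0.0377. The call on PRSS22 thus differs between the 2 tests, while the size of the difference is nearly equal.

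The matriptase system showed no call in the authors' deposited table. ST14 was at 26795 in siCtrl and 25436 in siSOX9, and PRSS8, the prostasin gene, at 2681 and 2540 (log2 fold changes of -0.075 and -0.078, adjusted p 1 for each, authors' deposited table). The siCtrl SDs of ST14, SPINT1 and SPINT2 were 2257, 512 and 1850 (n = 3), and their siSOX9 libraries were not recovered. The inhibitors SPINT1, at 13483 and 12031, and SPINT2, at 24320 and 21478, had log2 fold changes of -0.16 and -0.18 (adjusted p 1 for each, authors' deposited table). Per kb, ST14 was 1.72 times SPINT1 in siCtrl and 1.83 times in siSOX9. PRSS8 differed more between libraries of an arm than between arms: 2139, 3143 and 2761 in siCtrl, and 1898, 2943, 2713 and 2605 in siSOX9. In both arms the lowest value is that of the deepest library. With depth class (the deepest library of each arm against the others) as a term, limma-voom called PRSS8 lower, at -0.14 (adjusted p 0.0163), in a fit that called 50.6% of its genes. Its log2 ratio of siSOX9 to siCtrl was -0.17 for the deepest libraries and -0.10 for the others.

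HPN was at the edge of detection. The siCtrl libraries held 37, 4 and 2 reads and the siSOX9 libraries 42, 17, 8 and 5. As normalised counts these are 10.7, 5.45 and 4.15 against 11.7, 21.0, 13.5 and 10.4, so the groups overlap. Its log2 fold change was 1.06 (adjusted p 1, authors' deposited table).

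The deepest library of each arm was set against the other libraries to see whether the differences depend on it. The log2 ratio of the deepest siSOX9 to the deepest siCtrl library was -1.36 for TMPRSS3, and the ratio of the other libraries was also -1.36. The corresponding values were -1.01 and -0.96 for TMPRSS2, -2.42 and -2.20 for PRSS1, -0.57 and -0.58 for PRSS22, and -0.91 and -1.22 for TMPRSS4. The falls were therefore of similar size in both depth classes, whereas HPN had 0.13 and 1.64. The labels do not tie a library to an experiment, so the depth classes cannot be named as experiments.

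**Figure D2:**
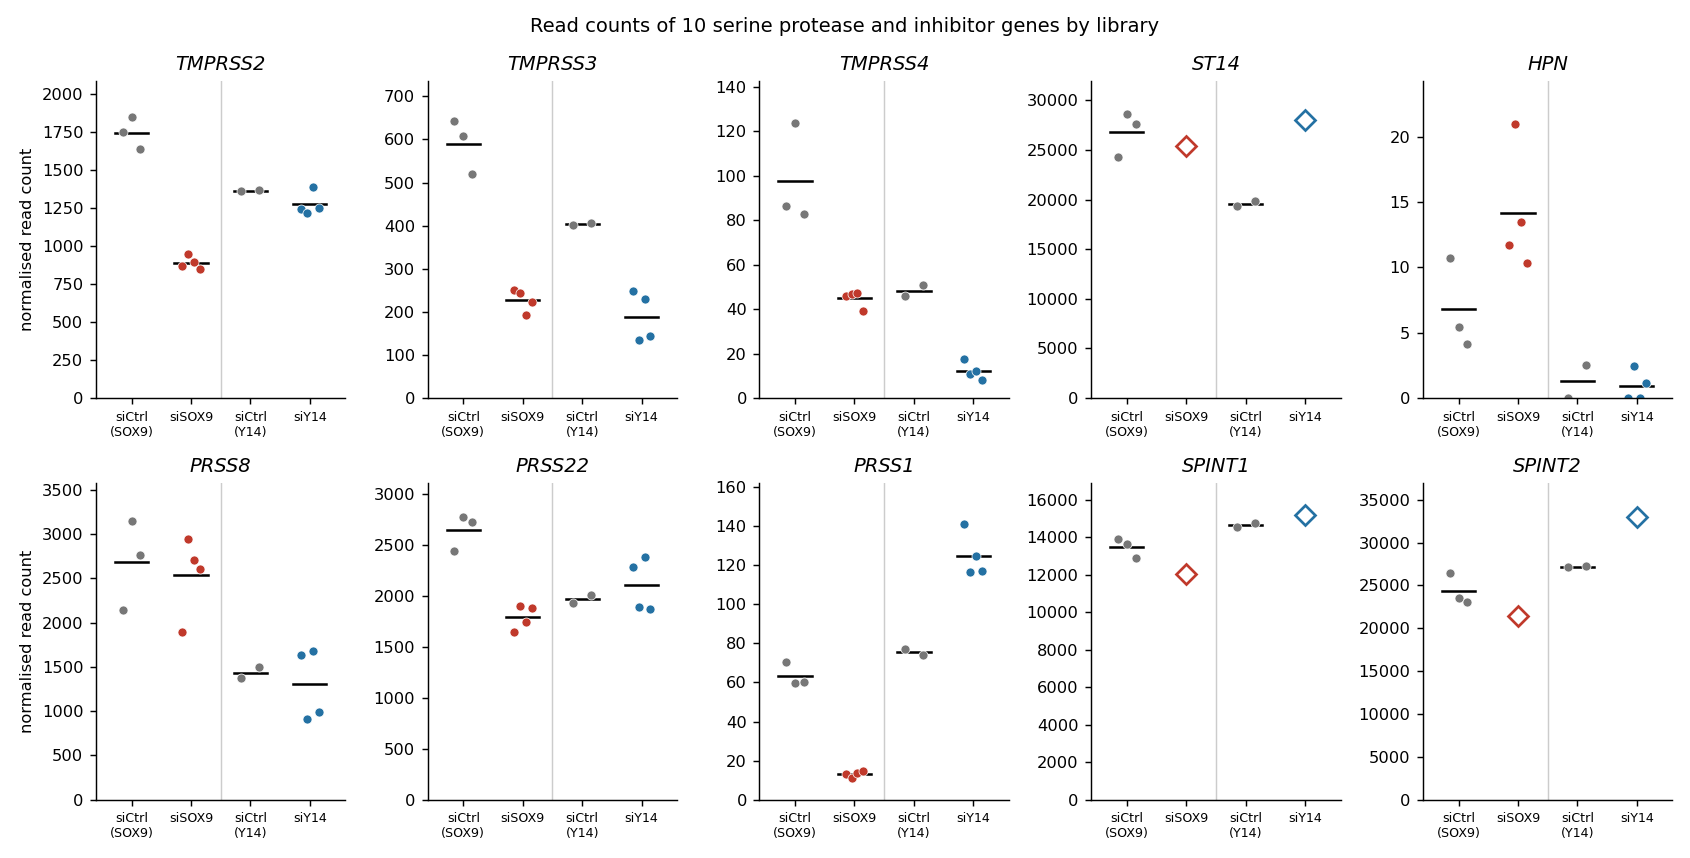
Normalised read count (y, from 0) of each gene in the 4 groups (x). Dots are recovered libraries, black bars arm means, and open diamonds arm means of genes whose libraries were not recovered; siSOX9 dots of TMPRSS2, TMPRSS3, TMPRSS4, PRSS22 and PRSS1 lie under all their siCtrl dots, and siY14 dots of TMPRSS3 and PRSS8 form an upper and a lower pair.

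The siY14 comparison asks which transcripts depend on Y14. At an adjusted p under 0.05 (authors' deposited table), TMPRSS3 and TMPRSS4 were lower and ST14 was higher, and the other 7 genes did not pass. Over all genes with reads, 5.35% were called lower and 3.81% higher. The median log2 fold change of the 10 genes was -0.021, against -0.0012 over 13444 genes with a mean of at least 10. That of the 10 includes HPN, whose mean lay below 10. Among the 9 genes that reached 10, the middle value was that of SPINT1, 0.054, so the sign of the median depends on HPN. Libraries did not overlap between arms for TMPRSS3 and TMPRSS4 (lower) and PRSS1 (higher) among the 7 recovered genes. In this smaller design 29.3% of 9399 recovered genes were lower in every siY14 library and 31.5% higher.

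TMPRSS4 showed the largest difference in this table. The siCtrl libraries were at 45.7 and 51.0 normalised counts and the siY14 libraries at 17.6, 10.6, 12.3 and 8.11. The means were 48.3 ± 3.72 (SD, n = 2) and 12.1 ± 4.02 (SD, n = 4), or -1.99 on the log2 scale (adjusted p 4.45e-04, authors' deposited table). The siY14 values come from 7 to 22 reads per library.

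TMPRSS3 fell as well, but unevenly. The siCtrl libraries held 401 and 407 normalised counts, and the siY14 libraries 247, 134, 231 and 144. Libraries a and c averaged 239 and libraries b and d 139, which is -0.76 and -1.54 on the log2 scale against siCtrl. The arm means were 404 ± 4.19 (SD, n = 2) and 189 ± 58.3 (SD, n = 4), a log2 fold change of -1.09 (adjusted p 4.90e-04, authors' deposited table). For both genes the call depends on how the libraries are treated. With libraries a and c summed and b and d summed, limma-voom with Benjamini-Hochberg adjustment gave an adjusted p of 0.142 for TMPRSS3 and 0.107 for TMPRSS4, with log2 fold changes of -1.14 and -1.97. Without siCtrl library a the adjusted p was 0.179 and 0.0806, and without siCtrl library b it was 0.115 and 0.0504.

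In the authors' deposited table ST14 was the only one of the 10 genes called higher. Its arm mean went from 19577 to 27966, 1.43 times or 0.51 on the log2 scale, near the threshold (adjusted p 0.0392, authors' deposited table). The siCtrl libraries were at 19319 and 19834. The siY14 libraries were not recovered for this gene, so its spread in that arm is not known. Its inhibitors did not pass: SPINT1 was at 14664 and 15221 (log2 fold change 0.054, adjusted p 0.995), and SPINT2 at 27204 and 33042 (0.28, adjusted p 0.348), per the authors' deposited table. Per kb, ST14 was 1.15 times SPINT1 in siCtrl and 1.59 times in siY14, and 0.366 and 0.431 times SPINT2.

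PRSS1 lay on the other side of its siCtrl level from where it stood under siSOX9. Its siCtrl libraries held 77.1 and 73.9 normalised counts and its siY14 libraries 141, 117, 125 and 117, with no overlap. The log2 fold change of 0.73 lay just outside the threshold (adjusted p 0.0638, authors' deposited table). By limma-voom with Benjamini-Hochberg adjustment it had an adjusted p of 0.0192 (0.72 ± 0.16, SE) in a fit that called 28.8% of its genes, and 0.160 with the library pairs summed. Adjusting the authors' p-values again over genes with a mean of at least 10 gave 0.0487 for PRSS1.

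PRSS8 spread widely in the siY14 arm. Libraries a and c held 1632 and 1674 normalised counts, above both siCtrl libraries at 1377 and 1494, and libraries b and d held 914 and 994, below both. The arm means of 1435 and 1304 (log2 fold change -0.14, adjusted p 0.936, authors' deposited table) therefore join values on both sides of the control. PRSS22, with siCtrl libraries at 1930 and 2006, had the same order in siY14, at 2281 and 2384 in a and c and 1888 and 1867 in b and d. TMPRSS2 differed little: 1359 and 1366 in siCtrl and 1241, 1217, 1389 and 1250 in siY14, or -0.097 on the log2 scale (adjusted p 0.866, authors' deposited table). For PRSS22 the log2 fold change was 0.097 (adjusted p 0.883, authors' deposited table). HPN had 0 and 2 reads in siCtrl and 0, 3, 0 and 1 in siY14, and a count of 0 allows up to 3 reads, so no fold change is given for it.

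Both knockdowns were set side by side in a joint limma-voom model of the recovered reads, whose contrast is the siY14 effect minus the siSOX9 effect. The tables do not share control samples. As the genes were chosen with both sets of results known, these values describe the genes and are no independent test. The model called 23.9% of 8547 genes. For PRSS1 the difference was 3.01 ± 0.25 (SE) on the log2 scale, with an adjusted p of 5.14e-06 by limma-voom. TMPRSS2 differed by 0.88 ± 0.11 (SE), adjusted p 1.01e-04, and PRSS22 by 0.65 ± 0.14 (SE), adjusted p 0.00470, both by limma-voom. For these genes the siSOX9 libraries were all below siCtrl. The siY14 libraries overlapped siCtrl for TMPRSS2 and PRSS22 and were all above it for PRSS1. TMPRSS3 had a difference of 0.24 ± 0.27 (SE) with an adjusted p of 0.570 by limma-voom, which does not show that its effects are equal. TMPRSS4 had -0.94 ± 0.35 (SE), adjusted p 0.0665, and PRSS8 -0.069 ± 0.36 (SE), adjusted p 0.911, by limma-voom.

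**Figure D3:**
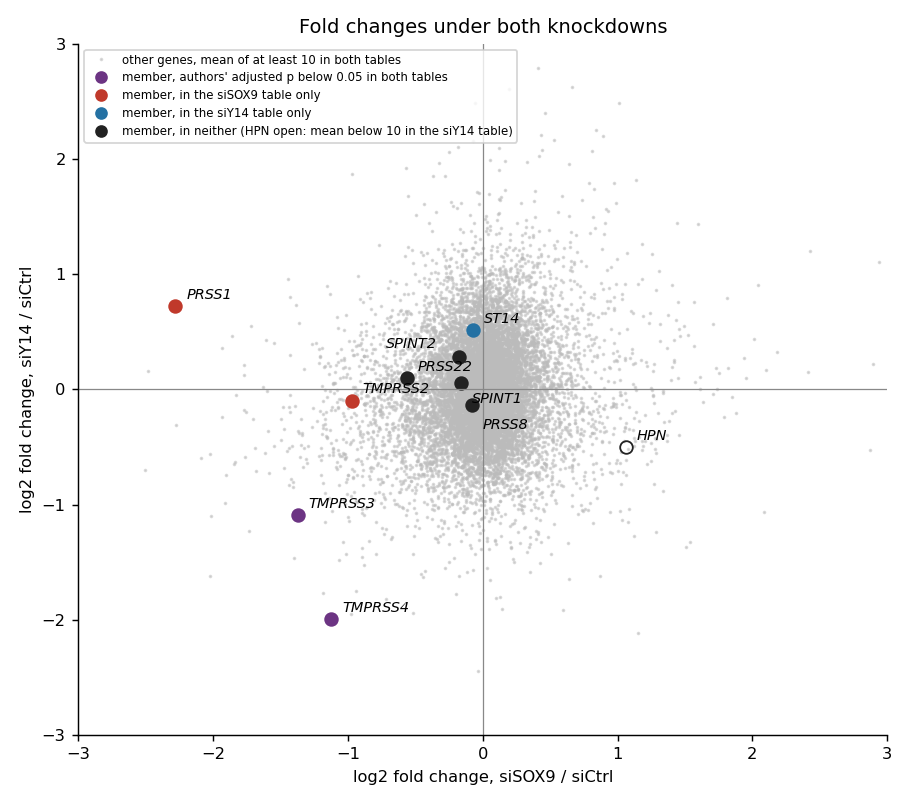
Log2 fold change under siSOX9 (x) against that under siY14 (y) from the authors' deposited tables, for 13186 genes with a mean of at least 10 in both tables (grey) and the 10 genes (coloured by their call). TMPRSS3 and TMPRSS4 lie in the lower left, PRSS1 in the upper left, and ST14, SPINT1, SPINT2 and PRSS8 near the origin along the siSOX9 axis; the axes end at 3, and 9 genes lie beyond them.

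By distance in the 2 log2 fold changes, over 11069 genes whose mean reached 100 in both tables, the genes most like TMPRSS3 were MYO15B (distance 0.271), DEPTOR (0.291) and SCEL (0.318). MYO15B, an unconventional myosin gene, had -1.43 under siSOX9 and -0.83 under siY14 in the authors' deposited tables. DEPTOR, an inhibitor of mTOR, had -1.41 and -0.80, and SCEL, the gene of sciellin, -1.06 and -1.02. All of these passed in the siSOX9 table, and none passed in the siY14 table, where the adjusted p ran from 0.108 to 0.287 (authors' deposited table).

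Upstream sequence was at hand for 4 of the 10 genes, and is shown for the genes with the largest fall (PRSS1) and the smallest adjusted p (TMPRSS3) under siSOX9. The 250 bases before the transcription start, 5′ to 3′ on the gene's strand, are from RefSeq on GRCh38.p14. Capitals mark TATAAA (the TATA box), ACAAT and ACAAAG (cores bound by HMG-box factors of the SOX and TCF families) and CACCTG (an E-box), each searched on both strands.
PRSS1, chr7:142749222-142749471, plus strand: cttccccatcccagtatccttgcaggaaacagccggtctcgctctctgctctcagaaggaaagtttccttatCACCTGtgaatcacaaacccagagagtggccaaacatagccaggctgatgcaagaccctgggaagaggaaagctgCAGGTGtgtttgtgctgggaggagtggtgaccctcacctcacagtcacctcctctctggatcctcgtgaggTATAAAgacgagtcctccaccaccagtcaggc
TMPRSS3, chr21:42389150-42389399, minus strand: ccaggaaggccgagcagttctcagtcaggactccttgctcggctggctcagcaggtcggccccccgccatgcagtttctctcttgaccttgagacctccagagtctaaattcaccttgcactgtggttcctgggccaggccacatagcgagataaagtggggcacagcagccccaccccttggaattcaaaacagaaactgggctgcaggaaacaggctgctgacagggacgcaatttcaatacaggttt
The PRSS1 window holds 1 TATAAA and 2 CACCTG, and the TMPRSS3 window holds 0 of the 4 motifs. ACAAT and ACAAAG occur in neither window. Of 35116 such windows of equal length, 10.7% hold TATAAA, 24.6% ACAAT, 13.7% ACAAAG and 17.5% CACCTG. The GC content of both windows, 54.4% and 56%, is below the median of 58%. Not shown are the windows of HPN and SPINT1, neither of which was called under siSOX9. HPN holds 2 CACCTG. SPINT1 has 1 window with 1 ACAAAG and 1 CACCTG, and another with 0 of the motifs. A match is only a run of letters, and its absence says nothing of binding elsewhere.

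The wider pathway was described with 4 lists of other genes. Of 17 other membrane-anchored serine proteases, 14 had reads in the siSOX9 table, but only 4 reached a mean of 10 there and 5 in the siY14 table. CORIN, the protease that activates atrial natriuretic peptide, rose in both and was the only gene of the list to pass in the authors' deposited tables. Under siSOX9 limma-voom also called TMPRSS13 lower, at -0.28 (adjusted p 0.00609), a gene named after its value was seen. CORIN went from 64.2 ± 14.4 (SD, n = 3) to 126 ± 20.1 (SD, n = 4) under siSOX9, or 0.97 on the log2 scale (adjusted p 0.0154, authors' deposited table). Under siY14 it went from 107 ± 6.49 (SD, n = 2) to 174 ± 29.8 (SD, n = 4), or 0.71 (adjusted p 0.0461, authors' deposited table). With the siY14 library pairs summed, limma-voom gave CORIN 0.69 and an adjusted p of 0.183, so its rise there was not called. In that fit, which called 0.255% of all genes it tested (0 higher and 24 lower), no gene of the 4 lists passed. At an unadjusted p under 0.05 it had 1 of the 4 genes tested in this list and 4 of 12 secreted proteases. It also had 3 of 14 inhibitors and 1 of 6 substrates or receptors, beside 2396 of all 9399 genes. The sign of CORIN is opposite to that of TMPRSS3 and TMPRSS4 in both tables.

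Of 31 secreted trypsin-like proteases, 27 had reads in the siSOX9 libraries and 26 in the siY14 libraries or their controls. Under siSOX9 1 rose and 2 fell, and under siY14 1 rose and 3 fell, in the authors' deposited tables. By limma-voom 2 were higher and 4 lower of 19 tested under siSOX9, and 1 higher and 3 lower of 12 under siY14. Those fits called 21.7% and 28.8% of all genes tested. The list medians over genes whose mean reached 10 were -0.63 and -0.24 on the log2 scale, beside 0.013 and -0.0012 for all genes. Under siSOX9 the falls were of kallikrein-related peptidases. KLK6 went from 2360 ± 396 (SD, n = 3) to 1162 ± 219 (SD, n = 4), or -1.02 on the log2 scale (adjusted p 0.00347, authors' deposited table). KLK10 went from 1142 ± 156 (SD, n = 3) to 590.5 ± 91.8 (SD, n = 4), or -0.95 (adjusted p 0.00145, authors' deposited table). Under siY14 KLK7, a protease of skin shedding, went from 99.4 ± 0.055 (SD, n = 2) to 28.2 ± 15.04 (SD, n = 4), or -1.82 (adjusted p 1.69e-06, authors' deposited table). PRSS16, a serine protease of the thymus, went from 722 ± 35.6 (SD, n = 2) to 435 ± 52.2 (SD, n = 4), or -0.73 (adjusted p 0.00258, authors' deposited table).

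Of 32 other serine protease inhibitors, 27 had reads in the siSOX9 table, with 1 rise and 1 fall in the authors' deposited table. At that table's unadjusted p under 0.05, 5 were higher and 2 lower, beside 797 and 1106 of 18747 genes with reads. Of 15 tested, limma-voom called 4 higher and 2 lower, in a fit that called 21.7% of its genes. Under siY14 and its controls 23 had reads, with 2 falls and 0 rises. There 0 were higher and 5 lower at an unadjusted p under 0.05, beside 1882 and 2107 of 17706 genes with reads. Of 14 tested, limma-voom called 0 higher and 2 lower, in a fit that called 28.8% of its genes. The medians were -0.066 and -0.37. PI3, the gene of the elastase inhibitor elafin, went from 46.7 ± 13.3 (SD, n = 3) to 155 ± 36.0 (SD, n = 4) under siSOX9, or 1.73 on the log2 scale (adjusted p 0.00134, authors' deposited table). APP, whose longer isoforms carry a Kunitz domain like those of SPINT1 and SPINT2, went from 28609 to 15715 there, or -0.86 (adjusted p 1.70e-04, authors' deposited table). Under siY14 SERPINE2, protease nexin-1, went from 1428 ± 18.5 (SD, n = 2) to 842 ± 107 (SD, n = 4), or -0.76 (adjusted p 0.00102, authors' deposited table). SERPINB5, maspin, went from 1509 ± 19.7 (SD, n = 2) to 1014 ± 55.0 (SD, n = 4), or -0.57 (adjusted p 0.0185, authors' deposited table).

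Of 20 substrates and receptors of these proteases, 2 fell under siSOX9 and 1 under siY14, with medians of -0.26 and -0.26. None rose in either deposited table (0 also at an unadjusted p under 0.05). On recovered reads limma-voom called 0 higher and 2 lower of 7 tested under siSOX9, and 0 higher and 1 lower of 6 under siY14. Those fits called 21.7% and 28.8% of all genes tested. MET, the receptor of hepatocyte growth factor, fell in both deposited tables, but limma-voom could not test it. It went from 12312 to 7082 under siSOX9 (log2 fold change -0.80, adjusted p 4.58e-04) and from 21880 to 15133 under siY14 (-0.53, adjusted p 0.0492), per the authors' deposited tables. PLAU, the urokinase gene, went from 114 ± 23.6 (SD, n = 3) to 53.8 ± 9.44 (SD, n = 4) under siSOX9, or -1.08 (adjusted p 0.00166, authors' deposited table). Under siY14 PLAU missed the threshold, at -0.63 (adjusted p 0.294, authors' deposited table).

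**Figure D4:**
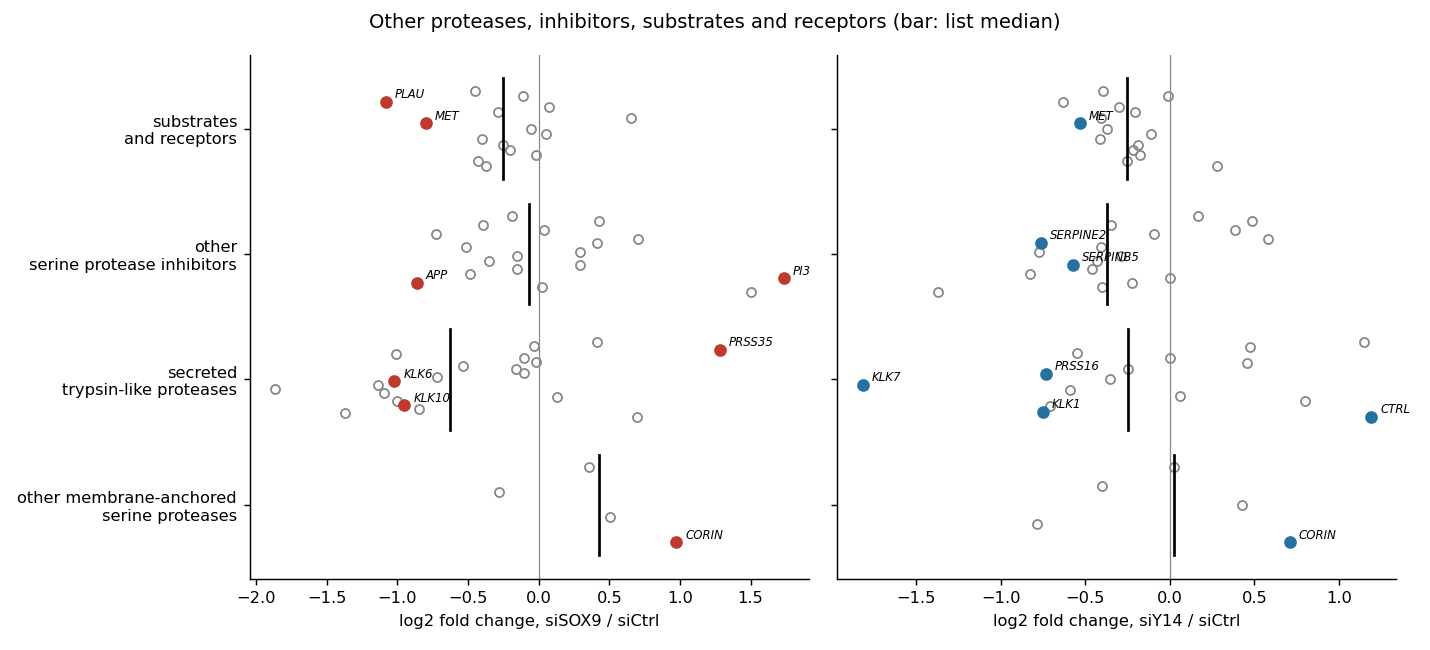
Log2 fold change (x) of the genes of 4 lists (y) with a mean of at least 10, under siSOX9 (left) and siY14 (right), from the authors' deposited tables. Filled dots passed an adjusted p of 0.05 and are named, open dots did not, and bars are list medians; CORIN lies to the right in both panels and MET to the left in both.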

How the data were processed

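The authors deposited 1 comparison table for siSOX9 and 1 for siY14. The submitters' processing notes name build hg19 and the tools DESeq, HTSeq, SAMtools, HISAT2, Bowtie and TopHat2. Versions and strand use in counting are not stated in the sources at hand. Libraries were made with a stranded kit, per the labels' protocols. Per the file headers, each deposited table holds a mean signal per arm (counts divided by size factors), the fold change as a ratio, its log2 value, and a p-value with its adjusted p-value. A call is an adjusted p under 0.05 in these tables. There were 0 unused columns of per-sample values. The genes, the lists and the rules were chosen with earlier results of these data known. Of the listed genes, 2 (1 substrate or receptor and 1 prostate marker) are not reported here and were left out of the counts and medians of their lists. All 10 genes are named; from each list, up to 4 genes with the smallest authors' adjusted p in either table among those called are named, and for the gene with the smallest adjusted p under siSOX9 the 3 nearest genes.

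From each arm mean, the whole reads of its libraries were worked out, accepting a set only where chance would give at most 0.01 other sets. Sets near equal counts were preferred, so SDs of abundant genes may be too small. limma 3.58.1 (voom, in R 4.3.3, Benjamini-Hochberg adjustment) was run on recovered reads of 10520 genes (siSOX9 table) and 9399 genes (siY14 table) whose mean reached 10. Both steps were tested on simulated data before use. Transcript lengths and coding sequence came from GENCODE v29 (GRCh38), a newer build than the authors' hg19. Alternatives were other pseudocounts, filters, scalings, thresholds and left-out libraries. Correlated pairs of siY14 libraries were summed, and libraries were left out of the joint model, as alternatives chosen after the data were seen.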

Additional observations from a re-analysis of the deposited data

Results flagged for a closer look

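The library lettered d of the siSOX9 arm had the lowest TMPRSS4 value, 39.4 normalised counts, farther from the other 3 siSOX9 libraries than their own spread allows by Dixon's rule. It rests on 19 reads, and chance flags about 1 in 20 such groups, of which 14 were examined. The knockdown effects differed for PRSS1, by 3.01 on the log2 scale (siY14 minus siSOX9), for TMPRSS2, by 0.88, and for PRSS22, by 0.65, in the joint limma-voom model. The PRSS1 and TMPRSS2 differences passed without any 1 of the 13 libraries, with adjusted p up to 2.73e-04 and 0.00367 by limma-voom. That of PRSS22 passed in 12 of the 13, the exception being the fit without library a of the siCtrl arm of the Y14 experiment (0.62, adjusted p 0.0648 by limma-voom).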

How the results depend on the processing

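The authors' deposited tables call 650 genes under siSOX9 and 1622 under siY14. At an adjusted p of 0.01 these counts were 417 and 663, by limma-voom on recovered reads 2286 and 2703, and with TMM factors 2241 and 2787. limma-voom called 3332 genes under siSOX9 without the deepest library of each arm and 5318 with depth class as a term. Leaving out 1 library gave 1275 to 2677 calls under siSOX9, 88 to 3369 under siY14 (88 and 472 without siCtrl library a or b) and 722 to 2214 in the joint model (722 and 1048 without the same libraries, 2040 with all). With siY14 libraries a and c summed and b and d summed, 24 genes were called under siY14, 0 higher and 24 lower. Of the 10 genes, 3 are called under siY14 in the deposited table (TMPRSS3, TMPRSS4, ST14) and 3 by limma-voom (TMPRSS3, TMPRSS4, PRSS1), which could not test ST14. limma-voom called 0 to 3 with 1 library left out and 0 with pairs summed. The 0 came without siCtrl library a, without b, and with pairs summed, with the same 3 genes at an unadjusted p under 0.05 each time. Over the single genes, 266 of the alternative values kept direction and side of the threshold, 22 came to pass it, 7 ceased to pass it and 5 turned direction. Values with other pseudocounts, or centred on the median, carry the authors' adjusted p and could not change side. Pseudocounts could not turn direction either, so the count of kept values is partly fixed in advance. All 5 turns are of PRSS8, which passes in no main test: it ran from -0.47 to 0.24 under siSOX9, from -0.34 to 0.0021 under siY14 and from -0.45 to 0.31 in the joint model as single libraries were left out (0.10 and 0.021 without siY14 library b or d). PRSS22 under siSOX9 passed in all limma-voom fits. The cause of these changes was not tested. No paired analysis was possible because neither the deposited columns nor the recovered libraries carry a replicate number. Depth limits HPN in both tables, TMPRSS4 in the siY14 table and PRSS1 in the siSOX9 table.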
